A study of Homo sapiens with 6 samples.

Results

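Eph receptors and their ephrin ligands were measured as RNA in HaCaT cells, a human epidermal keratinocyte line that became immortal spontaneously in culture. The 10 genes described are the rows of the deposited count table named EPHA1, EPHA2, EPHA4, EPHB2, EPHB3, EPHB4, EFNA1, EFNA5, EFNB1 and EFNB2, chosen by name as the Eph receptor kinases and ephrin ligands of keratinocytes, out of 46287 rows. All 10 were found, and all 10 passed the filter on low counts. The 2 groups were wild-type control cells and cells with a homozygous SDR42E1 knockout made by CRISPR/Cas9, with 3 libraries each. Cells of both groups were grown in the same serum-containing medium and harvested before confluence, and the labels name no further agent. Replicates are described as biological, but the number of edited clones and of separate cultures behind them is not stated, so p-values measure only the spread between these libraries, which may be technical. The study asked how loss of SDR42E1, a short-chain dehydrogenase/reductase linked to vitamin D, alters the transcriptome.

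Eph receptors are the largest family of receptor tyrosine kinases and act where cells touch. Ephrins are membrane-bound: A-class ephrins are held by a lipid anchor and B-class ephrins span the membrane, so binding can signal forward into the cell with the receptor and, in reverse, into the cell with the ephrin. A-class receptors mostly bind A-class ligands and B-class receptors B-class ligands, with EPHA4 known to bind both. In epithelia the system is known for cell sorting, boundary formation, adhesion and migration, and in epidermis EPHA2 and EFNA1 are among its best studied members.

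SDR42E1 RNA was lower in every library labelled knockout, at 20.1 to 23.2 CPM (counts scaled to the TMM-adjusted library size) against 46.8 to 48.8 CPM in control libraries (log2 fold change -1.16, SE 0.08, adjusted p = 2.69e-14). This and every other adjusted p for a gene comes from the quasi-likelihood test of edgeR unless another tool is named. Library totals were 11504473 to 16928201 counts, and all 6 within-group pairs of libraries differed beyond sampling noise, with a chi-square of 2.65 to 4.49 per degree of freedom. All 12 keratinocyte markers examined, KRT5, KRT14 and TP63 among them, were detected and tested, and summed to 9725 to 10350 CPM in control and 11490 to 11890 CPM in knockout libraries. Summed markers of fibroblasts, melanocytes, endothelial cells and immune cells stayed at or under 6.19, 25.3, 4.28 and 9.80 CPM in every library. Markers with 0 counts in all 6 were 2 of 7, 1 of 6, 0 of 5 and 2 of 6, with DCN, PDGFRA, TYR and CD3E among them. The others had counts, and 2, 2, 2 and 1 of the markers passed the filter. Each sum differed without overlap between control and knockout libraries. The fibroblast sum was 4.30 to 6.19 CPM in control and 1.12 to 2.13 in knockout, the melanocyte sum 24.3 to 25.3 and 19.5 to 23.7, the endothelial sum 3.65 to 4.28 and 1.92 to 2.66, and the immune sum 5.83 to 8.33 and 9.10 to 9.80 CPM. The part of these shifts in the results was not tested. In RNA from whole cultures, fewer cells that express a gene and less RNA per cell cannot be told apart.

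Of the 10 Eph and ephrin genes, 3 were higher and 5 lower in knockout cells and 2 did not pass the threshold (adjusted p under 0.05 over all 12293 tested genes). Among all tested genes 24.6% were called higher and 25.8% lower, 50.4% in all, so changes of some size were common in this comparison. The median log2 fold change of the 10 was -0.14, against -0.0040 over all tested genes. The falls were the receptor genes EPHA4, EPHB3 and EPHB2 and the A-class ligand genes EFNA1 and EFNA5. The rises were the receptor gene EPHA2 and the B-class ligand genes EFNB1 and EFNB2. Only EPHA4, among the 10, changed by at least 2-fold, and it fell; of all tested genes 5.23% were called and at least 2-fold lower, and 7.14% at least 2-fold changed in either direction. The CPM of the groups did not overlap in 9 of the 10, EPHA1 being the exception, where 56.5% of tested genes did not overlap.

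Sequence immediately before the transcription start is shown for the receptor gene that fell most among the 10, the receptor gene that rose, and a B-class ligand gene that rose, because these windows differed widely in base composition. Sequences are from RefSeq (GRCh38.p14), written 5′ to 3′ on the gene's own strand, trimmed to the bases that also lie outside the GENCODE gene. Capitals mark GC boxes (GGGCGG or its reverse complement CCGCCC) and the TATA box match (TATAAA, or on the other strand TTTATA).
EPHA4 (chr2:221574203-221574452, minus strand): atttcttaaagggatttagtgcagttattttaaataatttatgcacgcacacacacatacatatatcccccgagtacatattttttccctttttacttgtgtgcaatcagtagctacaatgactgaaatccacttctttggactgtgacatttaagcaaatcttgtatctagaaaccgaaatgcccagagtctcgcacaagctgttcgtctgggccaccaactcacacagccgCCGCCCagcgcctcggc
EPHA2 (chr1:16156088-16156319, minus strand): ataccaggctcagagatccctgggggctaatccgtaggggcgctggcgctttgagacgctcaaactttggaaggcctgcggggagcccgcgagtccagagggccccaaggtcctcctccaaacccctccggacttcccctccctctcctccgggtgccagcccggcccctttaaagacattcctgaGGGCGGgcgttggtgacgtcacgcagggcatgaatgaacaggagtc
EFNB2 (chr13:106535663-106535912, minus strand): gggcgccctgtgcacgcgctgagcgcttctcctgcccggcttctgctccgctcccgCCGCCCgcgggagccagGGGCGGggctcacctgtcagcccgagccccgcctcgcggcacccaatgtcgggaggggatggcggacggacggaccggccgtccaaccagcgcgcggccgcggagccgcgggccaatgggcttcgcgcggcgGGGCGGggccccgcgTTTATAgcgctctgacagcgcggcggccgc

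Over RefSeq windows of 300 bases around the start, all 10 genes matched, and EPHA4 had the lowest GC content, 43.0%, with 12 CpG dinucleotides. The other 9 had 62.0% to 83.0% GC and 18 to 49 CpG, and the median of 35116 such windows was 58.7% GC and 14 CpG. A GC box, searched as GGGCGG on both strands, was present in all 10 windows and in 45% of all windows. A TATAAA match on either strand was found in EFNB2 alone among the 10 and in 11.5% of all windows. The AP-1 motif TGANTCA was in 0 of the 10 windows and in 7.71% of all, and its absence says only that these letters are not in these windows. The genes that rose and the genes that fell both included GC-rich windows: EFNA5, which fell, had 78.0% GC and EFNB2, which rose, 78.7%.

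Among the 3 A-class receptors of the 10 genes, EPHA4 was the one that fell. EPHA4, a receptor for ephrins of both classes, is encoded on chromosome 2 from 221418027 to 221574202 (GRCh38, minus strand). It had 390, 546 and 339 counts in control libraries and 76, 74 and 99 in knockout libraries, or 28.1, 31.6 and 27.5 CPM against 6.57, 5.62 and 8.66 CPM. Every control library was more than 3 times as high as every knockout library, and knockout replicate 3 was the highest of its group. The means were 29.1 ± 2.21 and 6.95 ± 1.55 CPM (SD, n = 3 each), a log2 fold change of -2.08 (SE 0.13, adjusted p = 2.52e-16). It ranked 177th from the lowest among the 12293 tested genes.

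EPHA2, a receptor of EFNA1 and a regulator of keratinocyte adhesion and migration, moved the opposite way. It is encoded on chromosome 1 from 16124337 to 16156087 (minus strand). Its CPM was 30.1, 28.8 and 29.7 in control and 45.5, 46.2 and 40.9 in knockout libraries, with no overlap and with knockout replicate 3 the lowest of its group. The mean went from 29.5 ± 0.651 to 44.2 ± 2.85 CPM (SD, n = 3 each), with a log2 fold change of 0.58 (SE 0.08, adjusted p = 1.43e-07).

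EPHA1, an epithelial receptor first described in the family (chromosome 7, 143390289 to 143408892, minus strand), had 68.5, 69.8 and 67.8 CPM in control and 67.8, 73.3 and 63.5 CPM in knockout libraries. The groups overlapped, and the knockout libraries lay on either side of the control values. EPHA1 had a log2 fold change of -0.01 (SE 0.06, adjusted p = 0.912), with a 95% interval from the SE of -0.14 to 0.12. A change within that interval was not detectable here.

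Of the 3 B-class receptors of the 10 genes, EPHB3 and EPHB2 fell and EPHB4 did not pass the threshold. EPHB3, known with EPHB2 for positioning cells in the intestinal epithelium, had 28.4, 29.4 and 27.4 CPM in control and 19.0, 18.8 and 19.2 CPM in knockout libraries. Knockout libraries were within 0.5 CPM of each other and all lower than the control libraries. The mean fell from 28.4 ± 1.02 to 19.0 ± 0.242 CPM (SD, n = 3 each), with a log2 fold change of -0.58 (SE 0.09, adjusted p = 2.07e-06). Its position is chromosome 3, 184561784 to 184582409 (plus strand).

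EPHB2, which binds B-class ephrins and also EFNA5, had 69.0, 72.4 and 70.2 CPM in control libraries and 59.2, 56.3 and 60.8 CPM in knockout libraries. It was lower in all 3 knockout libraries by a smaller step, from 70.5 ± 1.71 to 58.8 ± 2.29 CPM (SD, n = 3 each; log2 fold change -0.27, SE 0.06, adjusted p = 0.000674). Its position is chromosome 1, 22710839 to 22921500 (plus strand). EPHB4, a receptor of EFNB2 best known from blood vessels (chromosome 7, 100802565 to 100827521, minus strand), had 63.5, 63.1 and 62.8 CPM in control and 67.3, 67.0 and 70.1 CPM in knockout libraries. Its groups did not overlap, but the log2 fold change of 0.11 (SE 0.06, 95% interval -0.01 to 0.23) did not pass the threshold (adjusted p = 0.146).

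**Figure D1:**
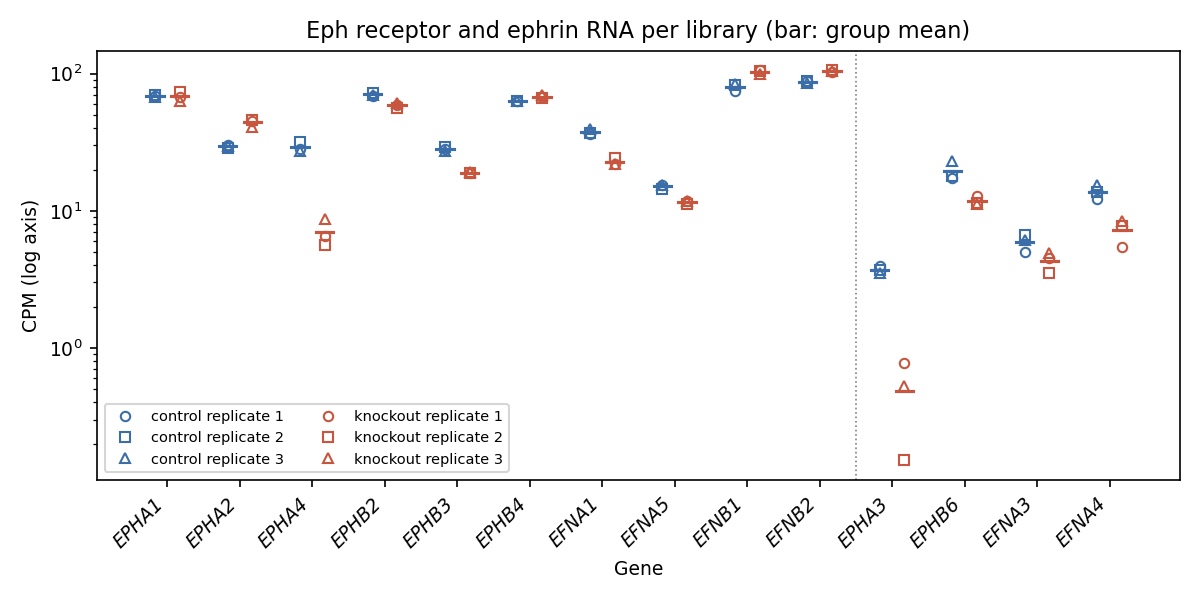
CPM of each Eph receptor and ephrin gene (log axis) in 3 control and 3 knockout libraries, with marker shapes for replicates and short bars for group means; the 10 main genes stand left of the dotted line and the other 4 tested family genes right of it. EPHA4 and EPHA3 show the widest gaps between groups, while the groups of EPHA1 overlap.

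Among the ligands, the A class was lower and the B class higher. EFNA1, a ligand of EPHA2 and EPHA1 (chromosome 1, 155127460 to 155134857, plus strand), had 36.3, 37.2 and 39.4 CPM in control and 22.0, 24.4 and 21.8 CPM in knockout libraries. Its values did not overlap between groups. The mean fell from 37.6 ± 1.59 to 22.7 ± 1.43 CPM (SD, n = 3 each), with a log2 fold change of -0.72 (SE 0.09, adjusted p = 8.30e-09). EFNA1 and its receptor EPHA2 moved in opposite directions in the same libraries.

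EFNA5, an A-class ligand that binds several EphA receptors and EPHB2, was the member with the fewest counts in control libraries (216, 248 and 190, against 136, 148 and 134 in knockout). That is 15.5, 14.3 and 15.4 CPM against 11.8, 11.2 and 11.7 CPM, again without overlap. EFNA5 had a log2 fold change of -0.38 (SE 0.12) and, at 0.00835, the largest adjusted p of the 8 calls. Its position is chromosome 5, 107376889 to 107670895 (minus strand).

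EFNB1, a transmembrane ligand best known from craniofacial development (chromosome X, 68828997 to 68842147, plus strand), rose from 80.4 ± 4.66 to 102.9 ± 3.64 CPM (SD, n = 3 each). Its CPM was 75.1, 82.2 and 83.9 in control and 105.9, 103.8 and 98.8 in knockout libraries, a 1.28-fold rise (log2 0.36, SE 0.06, adjusted p = 4.10e-06). Control replicate 1 was the lowest of all 6.

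EFNB2, the ligand of EPHB4 and of EPHB2 (chromosome 13, 106489731 to 106535662, minus strand), had 88.6, 88.4 and 85.0 CPM in control and 102.8, 105.5 and 104.9 CPM in knockout libraries. All knockout values were above all control values, with means of 87.3 ± 2.02 and 104.4 ± 1.40 CPM (SD, n = 3 each; log2 0.26, SE 0.06, adjusted p = 0.000195). An antisense gene of the annotation shares 26.2% of the exon bases of EFNB2, and the counting's strand setting is unknown here, so reads of that antisense gene cannot be told apart from those of EFNB2. For EPHA1, EPHA4, EPHB2 and EPHB4 genes on the opposite strand share at most 4.7% of exon bases, and EPHA1-AS1 was listed at 0 counts in all 6 libraries.

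Levels of different genes were compared as CPM per kilobase of exon. In control cells EFNB1 had the highest level, 24.3 ± 1.41 CPM per kilobase, followed by EFNB2 at 17.4 ± 0.403, EFNA1 at 14.8 ± 0.627 and EPHA1 at 14.5 ± 0.220 (SD, n = 3 each). The ranges of EFNA1 and EPHA1 overlapped. EPHB4 came next at 9.81 ± 0.0616, then EPHA2 at 7.10 ± 0.156, EPHB3 at 6.26 ± 0.225, EPHB2 at 5.64 ± 0.137, EPHA4 at 3.85 ± 0.293 and EFNA5 at 2.65 ± 0.115 CPM per kilobase, with no overlap of ranges between these neighbours in the order.

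In knockout cells EFNB1 (31.0 ± 1.10 CPM per kilobase) and EFNB2 (20.8 ± 0.279) stayed first. EPHA1 followed at 14.4 ± 1.04, and EPHA2 at 10.6 ± 0.685 overlapped with EPHB4 at 10.6 ± 0.264. EFNA1 moved below them, to 8.95 ± 0.563, and EPHA4 from ninth to last place, at 0.920 ± 0.206 CPM per kilobase. The order below EFNB1 depended on the length used. With the longest annotated transcript in place of all exons, EPHA1 (20.4 CPM per kilobase) and EFNA1 (19.5) stood above EFNB2 (17.5) in control cells, and EFNA1 (11.8) above EPHA2 (11.1) in knockout cells, with overlapping ranges.

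As a share of the summed level per kilobase of the 6 receptors, EPHA2 went from 15.1% ± 0.524 in control to 23.4% ± 1.05 in knockout cells, and EPHA4 from 8.15% ± 0.499 to 2.03% ± 0.500 (SD, n = 3 each). EPHA1 held 30.8% ± 0.0271 and 31.7% ± 1.60 and remained the largest share. Of the summed level of the 4 ligands, EFNA1 held 25.1% ± 0.536 in control and 14.2% ± 0.680 in knockout cells, and EFNB1 41.0% ± 1.28 and 49.4% ± 1.04. The 2 A-class ligands together went from 17.5 ± 0.653 to 10.98 ± 0.513 CPM per kilobase and the 2 B-class ligands from 41.7 ± 1.17 to 51.8 ± 0.971. The 6 receptors together were at 47.2 ± 0.718 and 45.4 ± 0.994 CPM per kilobase, and the 4 ligands at 59.1 ± 1.62 and 62.8 ± 1.32. These sums and shares are descriptions, were not tested and hold only the 10 genes. The 4 other family genes that passed the filter are left out, and all were lower in knockout cells. EFNA4 was at 10.9 CPM per kilobase in control and 5.70 in knockout cells, and EFNA3 at 3.12 and 2.25. EPHB6 was at 3.66 and 2.22, and EPHA3 at 0.557 and 0.0727. The higher sum of the 4 ligands therefore does not describe all ephrin genes.

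**Figure D2:**
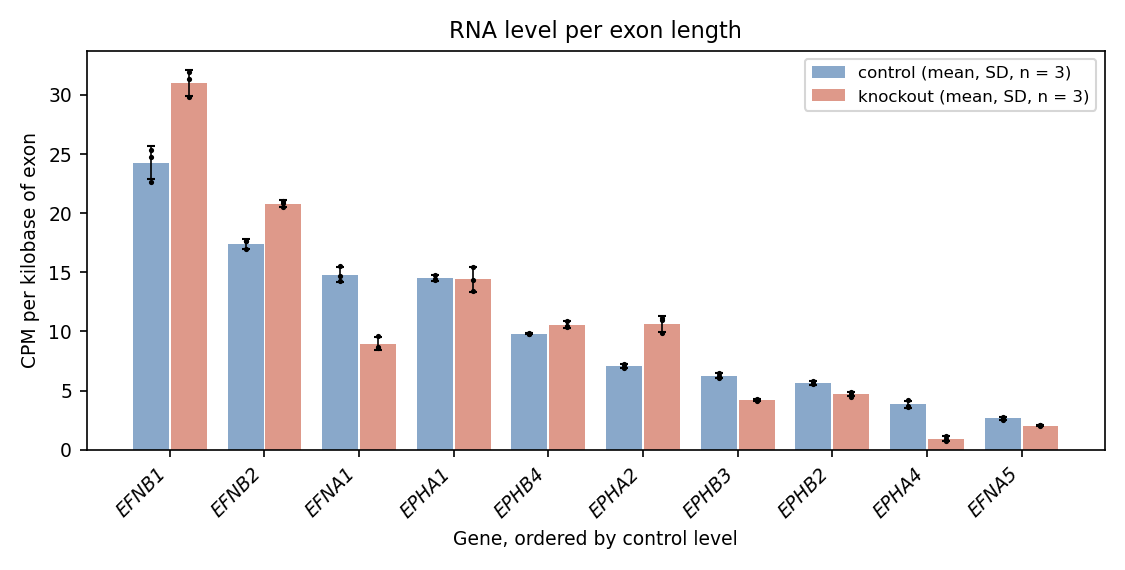
RNA level in CPM per kilobase of exon (bars: mean; error bars: SD, n = 3; dots: libraries) for the 10 genes, ordered by control level. By this length EFNB1 and EFNB2 are highest in both groups, EFNA1 drops from 14.8 to 8.95, and EPHA4 from 3.85 to 0.920. By the longest transcript, EPHA1 and EFNA1 stand above EFNB2 in control cells.

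The other 12 genes of the family were looked at by the same fit, and 4 passed the filter. All 4 were called lower in knockout cells, where 25.8% of all tested genes were, with a median log2 fold change of -0.82 against -0.0040 over all tested genes. EPHA3 had under 10 counts in each knockout library and passed the filter through its control libraries. A gene that passes in this way is bound to appear lower, so EPHA3 adds no separate weight to that count or median. EPHA3, an A-class receptor, had 55, 64 and 43 counts in control and 9, 2 and 6 in knockout libraries (3.72 ± 0.234 and 0.485 ± 0.315 CPM; SD, n = 3 each). Its log2 fold change of -2.95 (SE 0.38, adjusted p = 4.00e-08) was more negative than that of EPHA4, at a much lower level. EPHB6, a receptor without kinase activity, went from 19.5 ± 3.20 to 11.8 ± 0.923 CPM (log2 -0.71, SE 0.12, adjusted p = 8.25e-06).

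EFNA4, an A-class ligand, went from 13.8 ± 1.68 to 7.20 ± 1.55 CPM (SD, n = 3 each; log2 -0.93, SE 0.15, adjusted p = 3.14e-06). EFNA3, the A-class ligand gene next to it, went from 5.95 ± 0.830 to 4.30 ± 0.723 CPM (log2 -0.48, SE 0.20, adjusted p = 0.0461). This call was lost with DESeq2 (adjusted p = 0.107), with limma-voom (0.0501), without a filter (0.0519), and without control replicate 2, control replicate 3, knockout replicate 1 or knockout replicate 2 (adjusted p 0.0656 to 0.211). A readthrough gene of the annotation covers 44.7% of EFNA3 and 15.0% of EFNA4 exon bases, so the counting could have split their reads. With these, the 4 A-class ligand genes tested were all called lower and the 2 B-class ligand genes tested both called higher, against 25.8% and 24.6% of all tested genes. EFNA1, EFNA3 and EFNA4 lie in 1 cluster on chromosome 1, where 19 of the 20 neighbours of EFNA1 were below 0. Their calls cannot be taken as separate from each other, and whether position accounts for them was not tested. The EFNA3 call changed in 7 of 13 alternative settings.

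The remaining 8 genes were near or at 0. EPHA5 had 12, 9 and 8 counts in control and 1, 0 and 1 in knockout libraries, and EPHA10, a receptor lacking kinase activity, 7, 2 and 1 against 4, 5 and 4. EFNB3 had 3, 5 and 3 against 0, 0 and 4, and EPHA6, EPHA7 and EPHB1 at most 1 count in any library. EPHA8 and EFNA2 had 0 counts in all 6, where 3 counts, the limit that a count of 0 allows, would be 0.174 to 0.262 CPM depending on the library. These limits cover counting error only.

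Chromosome position was examined because neighbouring genes could move together in these cells: all 20 tested genes nearest to SDR42E1 were below 0, with a median log2 fold change of -0.65. For each family gene, the 10 nearest tested genes on each side gave a median log2 fold change, stated as a description without a test. These windows differed in size, from 0.338 megabases around EFNA1 to 25.6 around EPHA3, with 7.75 around EPHA4 and 15.9 around EFNA5. In the wide windows many neighbours are distant, so those medians say little about the immediate surroundings. Around EPHA4 that median was 0.02, and 0 of the 20 neighbours had a value as low as EPHA4; the lowest was -0.72. EPHA2 had a neighbour median of -0.05, with 0 of 20 as high as EPHA2. EPHB3 lay among genes with a median of 0.25, 0.84 above its own value, and 0 of the 20 were as low; with 20 genes on each side that median was 0.08. Its nearest tested neighbours were MAGEF1 (-0.24), POLR2H (0.41) and CLCN2 (0.43). EFNA5 (neighbours 0.04) and EFNB1 (-0.05) also stood off from their neighbours, with 0 and 1 of 20 neighbours beyond them in their own direction. EFNB2 lay 0.45 above its neighbours' median of -0.19, but 5 of its 20 neighbours were higher than EFNB2.

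EFNA1 differed from these in its surroundings. It lies in a cluster with EFNA4 and EFNA3 on chromosome 1, and 19 of its 20 neighbours, those ephrin genes included, were below 0, with a median of -0.39. EFNA1 was 0.34 below that median and 5 of the 20 neighbours were lower than EFNA1. The nearest were SLC50A1, a sugar transporter gene (-0.37), DPM3, a subunit gene of dolichol-phosphate mannose synthase (-0.91), and KRTCAP2 (-0.16, not past the threshold). EFNA3, at -0.48, was 0.05 below its own neighbours' median of -0.43, and EFNA4, at -0.93, was 0.46 below its median of -0.47. EPHB2 was 0.11 below its neighbours (-0.16), and 9 of its 20 neighbours were lower than EPHB2. EPHA1 and EPHB4 had nearly the same value as their neighbours, -0.02 and 0.10. Whether position accounts for any of these values was not tested.

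**Figure D3:**
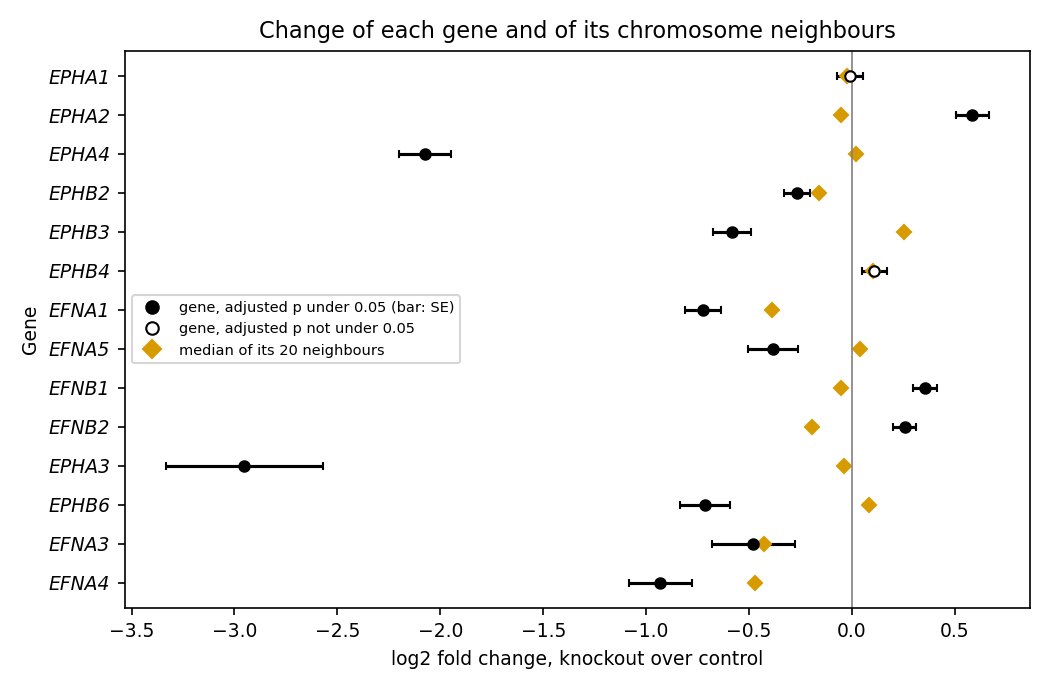
Log2 fold change, knockout over control, of the 10 genes and the 4 other tested family genes (circles, with SE bars; filled where adjusted p was under 0.05) and the median of the 20 tested genes nearest on the chromosome (diamonds). EPHA4 at -2.08 stands far from its neighbours' median of 0.02, and EFNA1, EFNA3 and EFNA4 lie among neighbours with medians of -0.39 to -0.47. The windows differ in size, 7.75 megabases around EPHA4 and 0.338 to 0.677 around those ephrin genes. The median around EPHA4 therefore says little about its immediate surroundings.

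**Figure D4:**
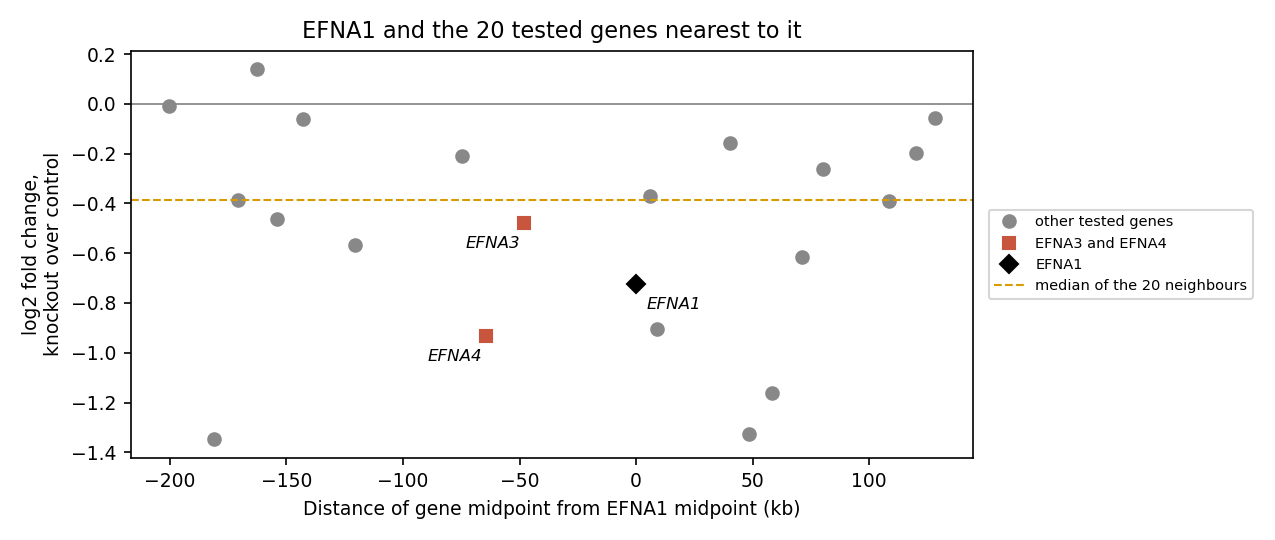
Log2 fold change, knockout over control, of EFNA1 (diamond), EFNA3 and EFNA4 (squares) and the other tested genes around EFNA1 (circles), by distance of gene midpoints in kilobases; the dashed line is the median of the 20 neighbours, -0.39. Of the 20 neighbours, 19 lie below 0, and 5 lie below EFNA1.

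Genes that act with Eph receptors were taken from a list of 48 adaptors, exchange factors, kinases and small GTPases of forward and reverse signalling. The filter kept 46, of which 11 rose (7 without control replicate 2), 13 fell and 22 missed the threshold, with a median log2 fold change of 0.04 against -0.0040 over all genes; 52.2% were called, near the 50.4% of all tested genes. VAV3, an exchange factor recruited by activated Eph receptors, changed the most, with 63.3, 73.0 and 73.8 CPM in control and 6.74, 6.76 and 5.86 CPM in knockout libraries. Its groups lay far apart (log2 fold change -3.43, SE 0.10, adjusted p = 6.44e-26), and the median of its chromosome neighbours was 0.12, over 9.07 megabases.

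ABL2, a cytoplasmic tyrosine kinase that regulates actin, rose from 92.6 ± 4.47 to 189.3 ± 8.15 CPM (SD, n = 3 each; log2 1.03). Its neighbours on chromosome 1 had a median of -0.31, over 6.86 megabases. DOCK4, a Rac exchange factor, rose from 1.15 ± 0.511 to 5.53 ± 0.452 CPM (log2 2.27, SE 0.29). Its control level was low and uneven, and the log2 fold change was 2.01 to 2.69 with 1 library left out. DOCK4 may therefore have passed the filter through its knockout libraries alone. A gene that passes in this way is bound to appear higher, so DOCK4 adds no separate weight to the count of rises. The median of its chromosome neighbours was 0.11, over 9.23 megabases. RGS3, which binds the tail of B-class ephrins through a PDZ domain in 1 of its isoforms, fell from 28.7 ± 0.228 to 14.1 ± 0.776 CPM (log2 -1.02). The median of its neighbours was -0.08, over 3.54 megabases. STAT3, a transcription factor (log2 -0.75), and GRB7, an adaptor (-0.96), also fell, both on chromosome 17 among neighbours with medians of -0.56 and -0.94. Adjusted p of these 5 was at most 2.74e-08 in edgeR's quasi-likelihood test.

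A list of 21 genes of Eph and ephrin cleavage, dephosphorylation and turnover had 19 tested, of which 5 rose (3 without control replicate 3), 4 fell and 10 missed the threshold. The 47.4% called was near the 50.4% of all tested genes, and the median log2 fold change was 0.10 against -0.0040 over all genes. PTPRJ, a receptor tyrosine phosphatase, fell from 32.3 ± 2.52 to 18.8 ± 1.89 CPM (SD, n = 3 each; log2 -0.78, SE 0.10). PTPN13, a phosphatase that acts on B-class ephrins, changed by -0.32, PTPRF, a phosphatase of cell adhesion, by 0.39, and PTPN11, a phosphatase of growth factor signalling, by 0.25 on the log2 scale (adjusted p at most 1.85e-05). The chromosome neighbours had medians of 0.02 for PTPRJ, -0.19 for PTPN13, 0.36 for PTPRF and 0.01 for PTPN11. Of 20 neighbours, 9 were higher than PTPRF and 7 lower than PTPN13. ADAM10, a protease known to cleave ephrins, did not pass the threshold (log2 0.08, adjusted p = 0.15), and it is named here after its value was seen.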

How the data were processed

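RNA was sequenced from 3 control and 3 SDR42E1-knockout libraries, made as stranded total-RNA libraries per the labels' protocols. Raw read counts per gene were deposited by the authors as 1 table. The submitters' processing notes name GRCh38; aligner, counter and strand setting: not given in the sources used here. Columns were matched to samples by name. The members and gene lists were chosen with earlier results of these data known.

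The whole table was fitted in edgeR 4.0.16 (R 4.3.3): filterByExpr (minimum count 10, minimum total 15), TMM scaling, robust quasi-likelihood F test, two-sided, with Benjamini-Hochberg adjustment over 12293 genes and a threshold of 0.05. Log2 fold changes (knockout over control) used a prior count of 0.125, each SE is the fold change's size divided by root F, and CPM use TMM-adjusted library sizes. The script was tested on simulated counts with 50 genes changed at each size. It called with the right sign 64% of 1.25-fold, 82% of 1.5-fold, 94% of 2-fold and 100% of 4-fold changes. There were 5 false calls, and many changes of 1.25-fold were missed. Exon lengths (the union of exons) and positions came from GENCODE release 29, and promoter windows from RefSeq. Named beside the members were SDR42E1, every other family gene that passed the filter, up to 6 and 4 list genes with the smallest adjusted p, and up to 3 nearest genes where the neighbour median was at least 0.2 from 0. Alternatives were DESeq2 1.42.0, limma-voom (limma 3.58.1), RLE and upper-quartile scaling, other filters, a replicate block and leaving out each library.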

Additional observations from a re-analysis of the deposited data

How the results depend on the processing

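The alternatives were 2 other tests (DESeq2 and limma-voom), RLE or upper-quartile scaling, 2 other filters (none, or at least 1 CPM in 3 libraries), a replicate block and leaving out each of the 6 libraries. Under each of these 13 settings 3 of the 10 genes were called higher and 5 lower. EPHA4 ranged from -2.26, with knockout replicate 3 left out, to -1.93, with knockout replicate 2 left out, and EPHA2 from 0.55 to 0.64. EPHA1, not called, turned sign without control replicate 2 (0.0026) and without knockout replicate 3 (0.0421), with a leave-one-out range of -0.0641 to 0.0421. SDR42E1 ranged from -1.22 to -1.12. Over all genes 6197 were called, 5338 to 6074 with 1 library left out. In the signalling list the number called higher, 11, was 7 to 13 with 1 library left out, lowest without control replicate 2; in the turnover list 5 became 3 to 6, lowest without control replicate 3. Libraries sharing a replicate number showed deviations correlated at 0.02, -0.09 and -0.01, which gave no pairing. The fit with a replicate block called 6425 genes. Of the calls under upper-quartile scaling 43.4% were rises, against 48.8%. With longest-transcript lengths EFNA1 held 30.5% of the summed level of the 4 ligands in control and 17.9% in knockout cells. With 20 neighbours on each side the medians around EPHA1 and EPHA4 were 0.06 and -0.02, of opposite sign to those with 10.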
